A study of Rattus norvegicus with 4 samples.

Results

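This comparison sets a kidney from an injected rat after 6 cycles of diet against a kidney from an uninjected rat after 1 cycle. It was formed from the group labels alone and uses 2 of the 4 kidney sections of the series, the section PAN_LS-FMD and the section healthy_LS-FMD, with every spot of at least 500 UMIs. A UMI (unique molecular identifier) stands for 1 captured RNA molecule, and a spot covers enough tissue for several cells, which need not be of 1 type. The sections, 10 µm thick, came from frozen kidneys of Sprague-Dawley rats and were read with the 10x Visium assay. PAN is puromycin aminonucleoside, a toxin of podocytes, and LS-FMD is a low-salt diet that mimics fasting. The PAN_LS-FMD rat had the injection and the 6 cycles, and was examined 6 weeks after the treatment and 5 months after the injection. The healthy_LS-FMD rat had no injection and was examined at 72 hours of refeeding; ages are not given in the sources used here. The 2 other sections give values beside the comparison: PAN (injected, fed freely) and healthy (no treatment), the latter counted with a later version of the software. The 2 sections compared thus differed in the injection, in the number of cycles and in the time since the diet, and the parts of these 3 in any difference cannot be told apart. Each group was 1 section, so no difference below has a replicate check or a test, and each range in brackets is an exact 95% interval of counting error only.

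In the fasted state the transcription factor PPARα turns on genes that oxidise fatty acids and make ketone bodies, while gluconeogenesis in liver and kidney supplies glucose. Refeeding raises insulin, and the SREBP factors then turn on genes that make fatty acids and sterols. The proximal tubule carries most of the kidney's fatty acid oxidation and its gluconeogenesis, and the collecting duct and the medulla set salt and water excretion. Puromycin aminonucleoside damages the podocytes that filter plasma and leads to later tubular injury.

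The PAN_LS-FMD section had 2187 spots and 34965670 UMIs, and the healthy_LS-FMD section had 2593 spots and 25330872 UMIs. The median spot held 14959 and 8823 UMIs in that order, of which mitochondrial genes gave 3.40% and 5.17% over the section. In all, 1650 spot barcodes occurred in both; barcodes of this assay name fixed slide positions, so a shared barcode does not mean a shared molecule. The kidney's layers took unequal shares of the 2 sections. Clusters of spots, placed by marker genes, gave cortex 40.7% of spots in PAN_LS-FMD (38.6 to 42.8) and 20.6% in healthy_LS-FMD (19.0 to 22.2). Outer stripe, the layer of the straight proximal tubule, took 31.1% (29.2 to 33.1) and 13.5% (12.2 to 14.8), and medulla took 21.1% (19.4 to 22.8) and 32.2% (30.4 to 34.1). Regions that could be placed in no zone took 7.13% and 29.5%. A region rich in red blood cell RNA took 4.24% of the healthy_LS-FMD section, and no cluster of PAN_LS-FMD was placed as blood-rich. A PAN_LS-FMD cluster of 156 spots scored highest for red blood cell genes but was led by Klk1c9 and Calb1 and stayed unplaced. These shares rest on clustering each section alone. When both sections were clustered together, 12 of 15 clusters held spots of 1 section only, and the shares moved: cortex took 40.8% of PAN_LS-FMD and 24.9% of healthy_LS-FMD, outer stripe 42.9% and 29.4%, medulla 5.76% and 37.1%, and unplaced regions 10.1% and 4.47%. The blood-rich cluster then held 11 spots of PAN_LS-FMD (0.503%) and 106 of healthy_LS-FMD (4.09%). Cortex and outer stripe were the larger parts of PAN_LS-FMD and medulla of healthy_LS-FMD by both clusterings, while the order of the unplaced shares turned. Zones below are those of the separate clustering unless the joint one is named. A region of 263 spots led by Slc6a12, Slco4a1 and S100a6, whose highest marker list was inner medulla, was found in the healthy_LS-FMD section alone by the separate clustering. Whole-section differences therefore mix these unequal layers with differences inside a layer, and values within zones are given beside them. A zone's own marker genes also placed its spots, so their values within zones are no independent check. In such spots, fewer cells of a type and less RNA per cell cannot be told apart.

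Of 32402 genes, 9565 had at least 200 UMIs over both sections. A gene was counted as higher or lower when its level in CPM (UMIs of the gene per 1000000 UMIs of the section) differed at least 1.5-fold and the counting interval excluded 1. By this rule 484 genes were higher in the PAN_LS-FMD section (5.06% of those measured), 1486 were lower (15.5%) and 7595 were neither. The median gene lay 0.19 below 0 on the log2 scale, and when the sections were scaled by the median of ratios, which sets that median to 0, the counts were 857 higher and 868 lower. That scaling moves every log2 ratio by the same amount, so the imbalance between higher and lower genes rests on the scaling. At 2-fold there were 180 higher (1.88%) and 494 lower (5.16%), 7.05% in all.

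**Figure D1:**
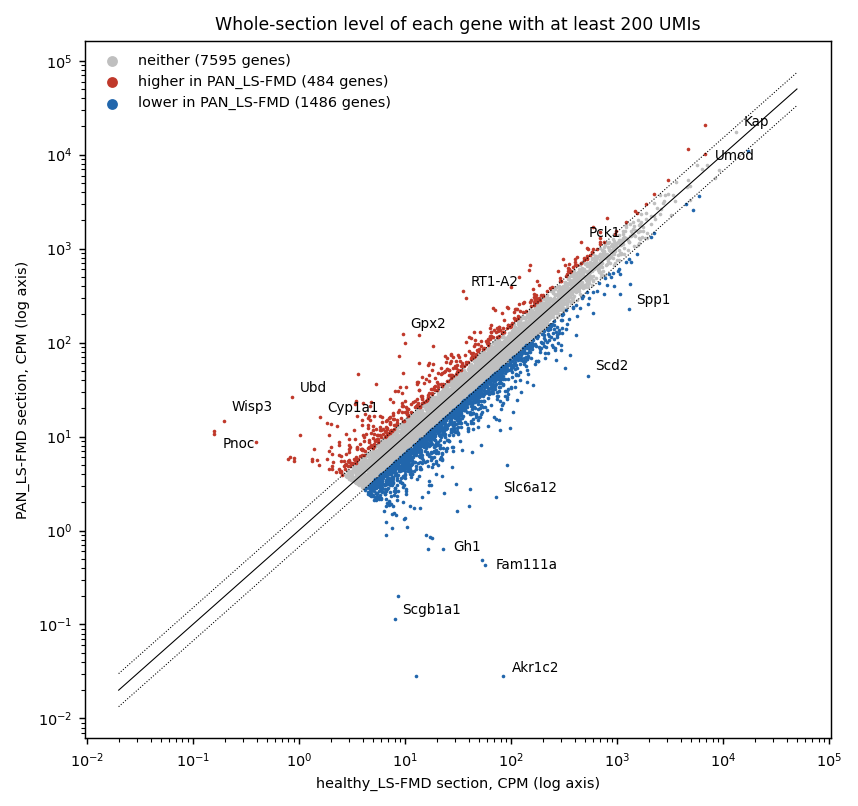
CPM of each of 9565 genes over all spots, healthy_LS-FMD on the horizontal and PAN_LS-FMD on the vertical axis, both on log scales; the solid line marks equal levels and the dotted lines 1.5-fold. The 484 genes counted as higher lie above the band, the 1486 counted as lower lie below it, and Akr1c2 lies farthest below, at 85.0 against 0.0286 CPM.

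The highest ratios belonged to genes that the healthy_LS-FMD section nearly lacked. Wisp3, a member of the CCN family of secreted matrix proteins, had 518 UMIs in PAN_LS-FMD and 5 in healthy_LS-FMD. Its level was 14.8 CPM in PAN_LS-FMD, 0.197 in healthy_LS-FMD, 2.53 in PAN and 1.35 in healthy, a ratio of 75.1 (32.0 to 232). PAN_LS-FMD was the high section and the other 3 lay well under it. Nwd2 stood at 11.4 CPM in PAN_LS-FMD, 0.158 in healthy_LS-FMD, 0.522 in PAN and 7.80 in healthy, a ratio of 71.9 (27.9 to 265), so that the untreated section was near PAN_LS-FMD and the remaining sections were low. Pnoc, which encodes the precursor of the neuropeptide nociceptin, stood at 10.7 CPM in PAN_LS-FMD, 0.158 in healthy_LS-FMD, 12.0 in PAN and 0.188 in healthy, a ratio of 67.7 (26.2 to 249.9). Both injected sections held Pnoc and both uninjected sections were near 0. Ubd, a ubiquitin-like protein induced by interferon-γ and TNF, was at 26.1 CPM in PAN_LS-FMD, 0.869 in healthy_LS-FMD, 219 in PAN and 29.1 in healthy, a ratio of 30 (19.7 to 48.1). Here healthy_LS-FMD was the single low section. RT1-A2, an MHC class I gene, was at 352 CPM in PAN_LS-FMD, 35.5 in healthy_LS-FMD, 1109.5 in PAN and 134 in healthy, a ratio of 9.90 (9.25 to 10.6). Reads of rat MHC class I genes can be divided among near-identical copies, so the level of this gene is uncertain. The class I gene RT1-A1 stood at 524 CPM in PAN_LS-FMD, 741 in healthy_LS-FMD, 889.9 in PAN and 344 in healthy. The shared light chain B2m stood at 1528 CPM in PAN_LS-FMD, 1135 in healthy_LS-FMD, 3131 in PAN and 1365 in healthy. Neither was counted as different, but B2m was counted as higher with scaling by the median of ratios, at 1.53-fold.

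Among the other genes of the highest 15 were enzymes of detoxification and lipid handling. Gpx2, a glutathione peroxidase, stood at 124 CPM in PAN_LS-FMD, 9.59 in healthy_LS-FMD, 152 in PAN and 20.5 in healthy, a ratio of 12.9 (11.3 to 14.8). Cyp1a1, the main target gene of the aryl hydrocarbon receptor, stood at 16.0 CPM in PAN_LS-FMD, 1.58 in healthy_LS-FMD, 0.321 in PAN and 1.06 in healthy, a ratio of 10.1 (7.35 to 14.4). Gpx2 was high in both injected sections, whereas Cyp1a1 was high in PAN_LS-FMD and low in the other 3. Vnn1, the pantetheinase that recycles the vitamin in coenzyme A, stood at 121 CPM in PAN_LS-FMD, 13.7 in healthy_LS-FMD, 59.8 in PAN and 122 in healthy, a ratio of 8.83 (7.91 to 9.87). Its healthy level matched that of PAN_LS-FMD. Prima1, Bcl2l15 and Tex36 had ratios of 12.8-fold, 10.2-fold and 7.44-fold. Cldn6, a claudin of embryonic epithelia, stood at 23.7 CPM in PAN_LS-FMD, 3.47 in healthy_LS-FMD, 18.3 in PAN and 2.51 in healthy, a ratio of 6.83 (5.48 to 8.61). The chemokine gene Cxcl13, which attracts B cells, stood at 13.8 CPM in PAN_LS-FMD, 2.01 in healthy_LS-FMD, 23.2 in PAN and 1.90 in healthy, a ratio of 6.83 (5.11 to 9.31). The last 2 were high in both injected sections and low in both uninjected ones.

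The lowest ratios were larger still. Akr1c2, an aldo-keto reductase, had 2152 UMIs in the healthy_LS-FMD section, where 44.0% of spots held it, and 1 UMI in the PAN_LS-FMD section. The PAN and healthy sections held 2 and 7 UMIs, so healthy_LS-FMD was the single section with more than 7 UMIs, at 85.0 CPM, and PAN_LS-FMD was 2970.5-fold (533 to 117380) lower. Fam111a stood at 0.429 CPM in PAN_LS-FMD, 57.1 in healthy_LS-FMD, 2.33 in PAN and 34.7 in healthy, which was 133-fold (80.5 to 239) lower, with both injected sections low and both uninjected sections high. Serpinb12 was at 0.629 CPM in PAN_LS-FMD, 16.4 in healthy_LS-FMD, 0.281 in PAN and 18.3 in healthy, or 26.1-fold (17.0 to 42.1) lower. Stk32c was at 0.858 CPM in PAN_LS-FMD, 17.2 in healthy_LS-FMD, 1.32 in PAN and 13.7 in healthy, or 20.0-fold (13.8 to 30.03) lower. Both divided by injection as Fam111a did. Gh1, growth hormone, stood at 0.486 CPM in PAN_LS-FMD, 53.4 in healthy_LS-FMD, 6.10 in PAN and 0 in healthy, or 109.9-fold (68.4 to 189) lower, and 39.4% of healthy_LS-FMD spots held it. Scgb1a1, the secretoglobin of airway club cells, was at 0.114 CPM in PAN_LS-FMD, 8.01 in healthy_LS-FMD, 0.923 in PAN and 0 in healthy, or 70.1-fold (26.9 to 259.6) lower. Neither Gh1 nor Scgb1a1 had a UMI in the healthy section, which has the most UMIs of the 4 and where 3 UMIs are 0.0512 CPM. The activin inhibitor Fst was at 0.200 CPM in PAN_LS-FMD, 8.57 in healthy_LS-FMD, 4.81 in PAN and 0.939 in healthy, or 42.8-fold (20.4 to 108) lower.

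Of the 15 lowest genes, Slc6a12, Smim5, Slc4a11 and Upk3bl were also among the 10 leading genes of the inner medullary region found in healthy_LS-FMD alone. Slc6a12, the betaine transporter of osmolyte uptake, stood at 2.26 CPM in PAN_LS-FMD, 72.0 in healthy_LS-FMD, 6.94 in PAN and 4.11 in healthy, or 31.9-fold (25.5 to 40.5) lower. Slc14a1, a urea transporter, stood at 0.829 CPM in PAN_LS-FMD, 18.1 in healthy_LS-FMD, 8.63 in PAN and 1.55 in healthy, or 21.8-fold (15.01 to 33.0) lower. Slc4a11, Smim5, Ypel4, Upk3bl and Wnt7b were 18.5-fold, 22.6-fold, 36.7-fold, 17.7-fold and 14.9-fold lower. Each of these 7 genes (Slc6a12, Slc14a1 and the last 5) had its highest level of the 4 sections in healthy_LS-FMD except Upk3bl, which stood at 0.887 CPM in PAN_LS-FMD, 15.7 in healthy_LS-FMD, 22.3 in PAN and 2.71 in healthy. Within medullary spots the difference of Slc6a12 grew to 69.2-fold lower, and in outer stripe spots, away from that region, it was 6.82-fold.

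**Figure D2:**
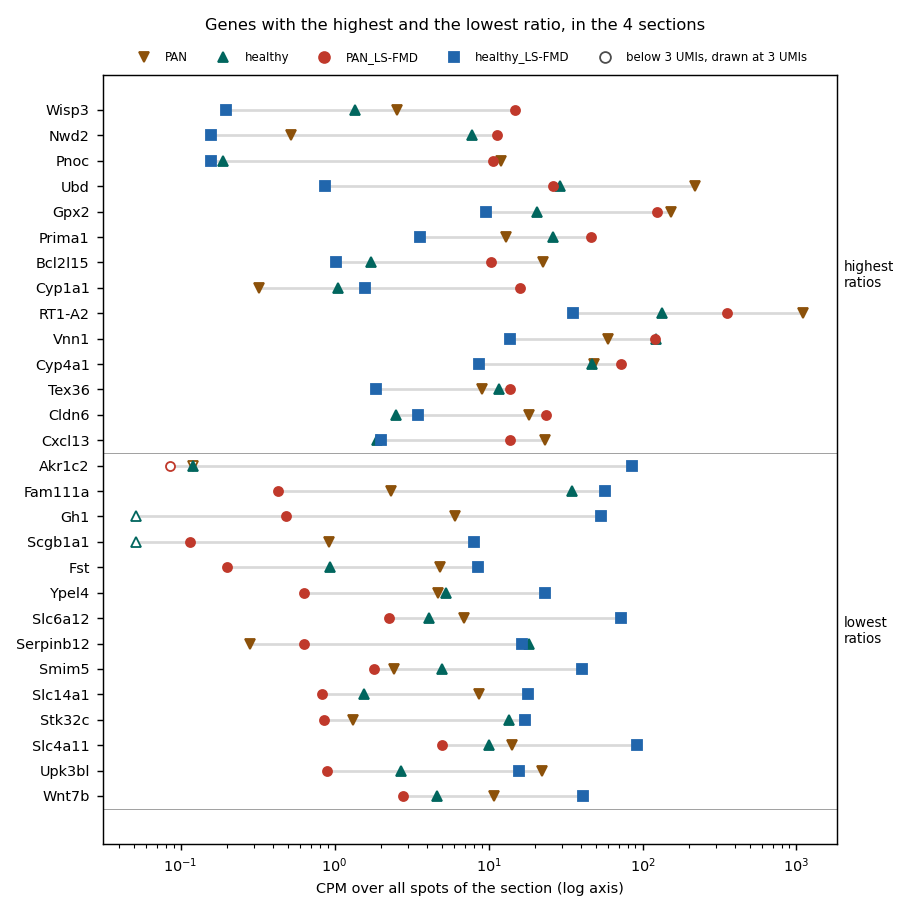
CPM over all spots in each of the 4 sections (symbols) for 14 of the 15 highest and 14 of the 15 lowest genes by the ratio of PAN_LS-FMD to healthy_LS-FMD, on a log axis; open symbols are levels below 3 UMIs, drawn at the level of 3 UMIs. For Ubd and Vnn1 the healthy section lies near PAN_LS-FMD, while for Pnoc, Cldn6 and Fam111a the sections divide by injection.

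The comparison was repeated within each layer. Of 9143 genes with at least 50 UMIs in each zone over both sections, 198 were higher (2.17%) and 430 lower (4.7%) in cortical, outer stripe and medullary spots alike. In cortex alone 7.85% of measured genes were higher and 12.1% lower, in outer stripe 4.71% and 12.5%, and in medulla 11.2% and 30.9%, or 42% in either direction. The medullary spots of healthy_LS-FMD included the inner medullary region of 263 spots, so a zone did not hold the same tissue in both sections. Ubd, with 2, 1 and 10 UMIs in the 3 zones of healthy_LS-FMD, had ratios of 65.1 (17.9 to 539), 102 (18.2 to 4050.5) and 14.5 (7.66 to 30.8) in that order. Gpx2 was 15.2-fold, 16.3-fold and 10.5-fold higher. RT1-A2 was 10.9-fold, 13.1-fold and 6.53-fold higher, and Vnn1 was 7.69-fold, 9.01-fold and 5.82-fold higher. Nwd2 had 0 UMIs in cortical and outer stripe spots of healthy_LS-FMD, which made it at least 16.7-fold and at least 10.9-fold higher there against 3 UMIs over the zone, and its medullary ratio, with 1 UMI in healthy_LS-FMD, was 120.2 (21.2 to 4788). Spata22, a meiosis gene, stood at 12.8 CPM in PAN_LS-FMD, 2.29 in healthy_LS-FMD, 1.65 in PAN and 4.70 in healthy over all spots and was 5.21-fold, 7.67-fold and 14.5-fold higher. Among the low genes, Akr1c2, with 1 UMI in cortex of PAN_LS-FMD, was 449-fold lower there (ratio 0.00223, 5.6e-05 to 0.0126) and, with 0 UMIs in the other zones of PAN_LS-FMD, at least 806-fold lower in outer stripe and at least 124-fold lower in medulla. Scd2, which encodes a stearoyl-CoA desaturase, stood at 44.4 CPM in PAN_LS-FMD, 533 in healthy_LS-FMD, 193 in PAN and 455 in healthy over all spots and was 10.6-fold, 13.7-fold and 8.42-fold lower by zone. Prcp, a lysosomal carboxypeptidase, was 8.34-fold, 11.4-fold and 6.27-fold lower, and Asb15 was 12.5-fold, 13.6-fold and 4.67-fold lower. Healthy held Scd2, Prcp and Asb15 near the level of healthy_LS-FMD, and PAN stood lower: Prcp was at 1.09 CPM in PAN_LS-FMD, 10.6 in healthy_LS-FMD, 5.90 in PAN and 15.2 in healthy over all spots, and Asb15 at 1.72 CPM in PAN_LS-FMD, 13.9 in healthy_LS-FMD, 1.85 in PAN and 10.4 in healthy.

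**Figure D3:**
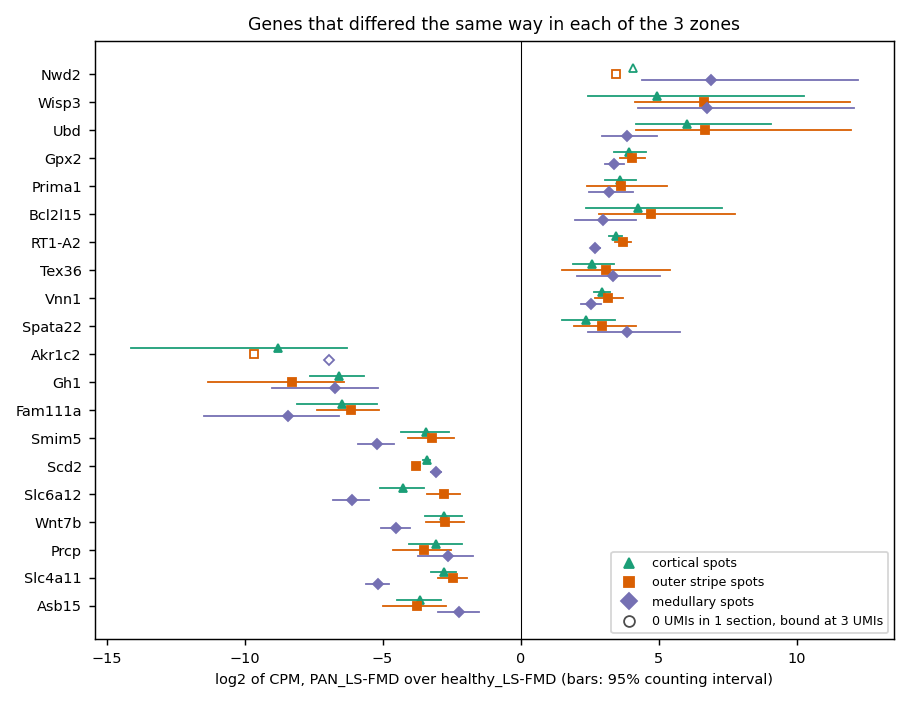
Log2 ratio of CPM, PAN_LS-FMD over healthy_LS-FMD, in cortical, outer stripe and medullary spots for the 10 genes on each side that ranked highest by their weakest zone; bars are 95% counting intervals and open symbols are bounds at 3 UMIs. Nwd2, Ubd and Gpx2 lie right of 0 and Akr1c2, Gh1 and Scd2 lie left of 0 in all 3 zones.

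Genes of fatty acid oxidation and ketone synthesis included 6 higher and 2 lower of 23 measured members (28 listed). Their median log2 ratio was 0.33 beside -0.19 for all genes, of which 5.06% were higher and 15.5% lower. The 6 higher members were higher in each zone. Cyp4a1, a fatty acid ω-hydroxylase and classic PPARα target, stood at 72.7 CPM in PAN_LS-FMD, 8.72 in healthy_LS-FMD, 48.3 in PAN and 46.7 in healthy, a ratio of 8.34 (7.26 to 9.61). For this gene healthy_LS-FMD was lowest of the 4 sections and the other 3 lay well above it. The related Cyp4a2 stood at 11417 CPM in PAN_LS-FMD, 4731 in healthy_LS-FMD, 4791 in PAN and 8475 in healthy, a ratio of 2.41 (2.40 to 2.43). Ehhadh, the peroxisomal bifunctional enzyme, stood at 58.6 CPM in PAN_LS-FMD, 18.6 in healthy_LS-FMD, 12.8 in PAN and 56.9 in healthy, a ratio of 3.15 (2.85 to 3.49). Angptl4, a secreted inhibitor of lipoprotein lipase, stood at 15.02 CPM in PAN_LS-FMD, 3.99 in healthy_LS-FMD, 57.3 in PAN and 12.8 in healthy, a ratio of 3.77 (3.04 to 4.71). Ehhadh was low in the PAN section as well, whereas Angptl4 was highest there. Acot1, an acyl-CoA thioesterase, stood at 147 CPM in PAN_LS-FMD, 77.1 in healthy_LS-FMD, 75.8 in PAN and 165 in healthy, a ratio of 1.90 (1.81 to 2.01). Over all spots no listed gene of the mitochondrial β-oxidation spiral was counted as different, but Acaa2, the thiolase of that spiral, and Hadha, of the trifunctional protein, were with scaling by the median of ratios, at 1.58-fold and 1.53-fold higher. Acadm, the medium-chain dehydrogenase, stood at 710.4 CPM in PAN_LS-FMD, 684 in healthy_LS-FMD, 276 in PAN and 798 in healthy. Hadha stood at 436 CPM in PAN_LS-FMD, 324 in healthy_LS-FMD, 279 in PAN and 432 in healthy, and Acaa2 at 255 CPM in PAN_LS-FMD, 184 in healthy_LS-FMD, 128 in PAN and 479 in healthy. Cpt1a, which admits fatty acids to mitochondria, stood at 198 CPM in PAN_LS-FMD, 179.5 in healthy_LS-FMD, 127 in PAN and 177 in healthy and was not counted either. The 2 lower members were Bdh1, which interconverts the ketone bodies, and Cpt1b, the muscle form of carnitine palmitoyltransferase. Bdh1 stood at 57.9 CPM in PAN_LS-FMD, 102 in healthy_LS-FMD, 47.7 in PAN and 60.4 in healthy. Cpt1b stood at 23.1 CPM in PAN_LS-FMD, 43.9 in healthy_LS-FMD, 30.8 in PAN and 21.7 in healthy. Ppara, Pdk4, Fgf21 and Fabp1 had under 200 UMIs over both sections.

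Gluconeogenesis and glucose transport had 5 higher and 1 lower of 9 measured members, with a median log2 ratio of 0.94. Over all genes the shares were 5.06% higher and 15.5% lower. G6pc, which releases free glucose, stood at 499 CPM in PAN_LS-FMD, 119.5 in healthy_LS-FMD, 221 in PAN and 307 in healthy, a ratio of 4.17 (4.01 to 4.34). Pck1, which commits oxaloacetate to gluconeogenesis, stood at 1178 CPM in PAN_LS-FMD, 463 in healthy_LS-FMD, 347 in PAN and 916 in healthy, a ratio of 2.55 (2.49 to 2.60). Fbp1, the fructose bisphosphatase, stood at 1010.1 CPM in PAN_LS-FMD, 527 in healthy_LS-FMD, 474 in PAN and 1141 in healthy, a ratio of 1.92 (1.88 to 1.96). For Pck1 and Fbp1 the PAN and healthy_LS-FMD sections were the low ones. The glucose transporters went both ways. Slc2a2 (GLUT2) and Slc5a2 (SGLT2) of the proximal tubule stood 2.15-fold and 1.99-fold higher. Slc2a1 (GLUT1) stood at 45.0 CPM in PAN_LS-FMD, 116 in healthy_LS-FMD, 40.7 in PAN and 57.6 in healthy, or 2.58-fold (2.42 to 2.74) lower. G6pc was 3.31-fold, 3.66-fold and 5.66-fold higher in cortex, outer stripe and medulla, Pck1 was 2.91-fold, 2.56-fold and 5.98-fold higher, and Slc5a2 showed a cortical ratio of 1.06. In medullary spots 14 of 14 measured genes typical of the S1 and S2 proximal tubule were also higher, with a median log2 ratio of 1.99. The medullary spots thus differed in make-up, and its part in these ratios was not tested. Clusters that scored highest for a proximal tubule list held 1380 spots of PAN_LS-FMD and 1078 of healthy_LS-FMD. Of the latter, 640 spots lay in clusters that were placed in no zone, since more markers of another zone than of their own were among their leading genes. In clusters of 260 and 167 spots that marker belonged to the other proximal tubule segment (Acsm3 and Miox), and in a cluster of 213 spots Umod and Cldn16 of the thick ascending limb outnumbered the proximal tubule marker Slc7a12. The 438 spots left were 349 of outer stripe and 89 of cortex, beside 680 and 700 in PAN_LS-FMD. Within all clusters that scored highest for proximal tubule, a choice made after seeing the data, 4.47% of 8652 genes were higher and 8.38% lower. There 5 of 9 genes of glucose metabolism were higher and 1 lower, and 7 of 22 fatty acid and ketone genes, Acaa2 among them at 1.70-fold, were higher and 2 lower. Within the placed ones alone, where 4.9% of 8225 genes were higher and 7.7% lower, the counts were 4 higher and 1 lower of 9, and 5 higher and 1 lower of 22, without Acaa2. Glycolysis had 0 higher and 3 lower of 11, Pfkl, Pfkm and Tpi1, and a median of -0.35.

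**Figure D4:**
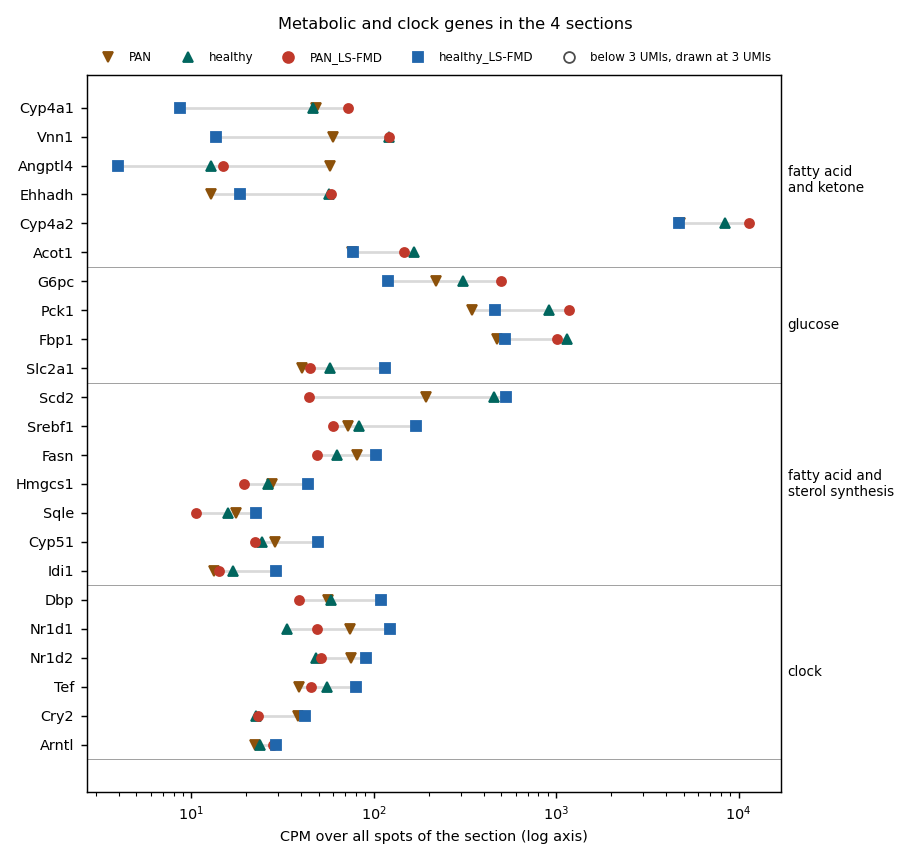
CPM over all spots in the 4 sections (symbols) for genes of fatty acid and ketone metabolism, glucose metabolism, fatty acid and sterol synthesis and the circadian clock, on a log axis. The healthy_LS-FMD squares lie lowest for Cyp4a1, Vnn1 and G6pc and highest for Scd2, Srebf1, Fasn, Dbp and Nr1d1.

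Genes of sterol and fatty acid synthesis lay on the other side, with 0 higher and 12 lower of 17 measured members (20 listed). Their median log2 ratio was -0.82, and 5.06% of all genes were higher and 15.5% lower. Srebf1, the factor that drives fatty acid synthesis under insulin, stood at 59.5 CPM in PAN_LS-FMD, 169.8 in healthy_LS-FMD, 72.3 in PAN and 83.5 in healthy, or 2.86-fold (2.71 to 3.01) lower. Fasn, fatty acid synthase, stood at 49.0 CPM in PAN_LS-FMD, 102.6 in healthy_LS-FMD, 80.6 in PAN and 63.0 in healthy, or 2.09-fold (1.97 to 2.23) lower. In both genes healthy_LS-FMD was the highest section, and the remaining 3 lay below it. Of the mevalonate pathway, Hmgcs1 stood at 19.4 CPM in PAN_LS-FMD, 43.4 in healthy_LS-FMD, 27.8 in PAN and 26.2 in healthy, or 2.23-fold (2.03 to 2.46) lower. Sqle, Cyp51 and Idi1 were 2.13-fold, 2.21-fold and 2.07-fold lower. Acly, which supplies cytosolic acetyl-CoA, stood at 85.7 CPM in PAN_LS-FMD, 94.5 in healthy_LS-FMD, 113 in PAN and 74.1 in healthy and was not counted as lower. Within zones 9 members were lower in cortex, 3 in outer stripe and 13 in medulla, where 30.9% of all genes were lower. Srebf1 was the single member lower in all 3 zones, by 2.29-fold, 3.04-fold and 2.28-fold. In clusters that scored highest for proximal tubule 6 of 17 were lower and 0 higher, and in the placed ones 4 of 17 and 0. Scd2, described above, was no member of this list. Acaca, Scd1 and Elovl6 had under 200 UMIs.

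Clock genes had 0 higher and 7 lower of 12 measured members (18 listed), beside 5.06% higher and 15.5% lower of all genes. Their median log2 ratio was -0.71. The clock is a loop in which ARNTL and CLOCK bind E-box sequences and drive the genes of their own repressors and of output factors. The output factor Dbp stood at 39.0 CPM in PAN_LS-FMD, 109 in healthy_LS-FMD, 56.5 in PAN and 58.2 in healthy, or 2.79-fold (2.62 to 2.98) lower. The repressor Nr1d1 (REV-ERBα) stood at 49.1 CPM in PAN_LS-FMD, 123 in healthy_LS-FMD, 74.0 in PAN and 33.6 in healthy, or 2.496-fold (2.35 to 2.65) lower. Both were highest in healthy_LS-FMD. Nr1d2 was 1.78-fold lower, Tef 1.78-fold, Cry2 1.80-fold and Bhlhe40 1.79-fold. Npas2, which can stand in for CLOCK, was 1.51-fold lower. The driver Arntl itself stood at 28.0 CPM in PAN_LS-FMD, 29.1 in healthy_LS-FMD, 22.4 in PAN and 23.7 in healthy. Clock stood at 43.6 CPM in PAN_LS-FMD, 48.3 in healthy_LS-FMD, 44.2 in PAN and 34.4 in healthy, and Cry1, Nfil3 and Per2 had ratios of 1.29, 1.31 and 0.792. None of these 5 was counted as different, and the log2 ratio of Arntl moved from -0.05 to 0.13 with scaling by the median of ratios. Dbp, Nr1d1 and Nr1d2 were lower in each zone, Dbp by 3.02-fold, 3.01-fold and 2.83-fold. In cortical spots 2 clock genes were higher and 4 lower (median -0.26), where 7.85% of all genes were higher and 12.1% lower. Outer stripe and medullary spots each had 0 higher and 6 lower, with medians of -0.60 and -0.69. The hour at which each kidney was taken is not given in the sources used here.

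The 250 bases before the start of the clock genes were searched for the E-box letters CACGTG, which read the same on both strands, since several of these genes are known targets of ARNTL and CLOCK. RefSeq promoters (build GRCr8) were given for 11 of the 12 measured clock genes. The letters occurred in 3 of the 7 lower genes, Tef, Bhlhe40 and a later start of Nr1d1, and in 0 of the 4 others with a promoter. A gene was counted if any of its starts held the letters, and the other start of Nr1d1 held none. By single promoter, the letters occurred in 5.59% of all 33469 promoters of that table, which is not the same measure as a count of genes. The windows of Tef (chr7:115206577-115206826, plus strand) and Bhlhe40 (chr4:143174200-143174449, plus strand) are shown with that of Dbp (chr1:105312006-105312255, plus strand), the lower gene with the largest difference, which held no match in this window. All are written 5′ to 3′, and capitals mark the E-box.
Tef: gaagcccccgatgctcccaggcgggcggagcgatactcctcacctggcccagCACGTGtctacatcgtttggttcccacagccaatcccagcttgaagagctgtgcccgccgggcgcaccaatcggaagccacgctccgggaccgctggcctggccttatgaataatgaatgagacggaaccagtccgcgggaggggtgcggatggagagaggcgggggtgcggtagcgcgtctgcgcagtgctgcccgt
Bhlhe40: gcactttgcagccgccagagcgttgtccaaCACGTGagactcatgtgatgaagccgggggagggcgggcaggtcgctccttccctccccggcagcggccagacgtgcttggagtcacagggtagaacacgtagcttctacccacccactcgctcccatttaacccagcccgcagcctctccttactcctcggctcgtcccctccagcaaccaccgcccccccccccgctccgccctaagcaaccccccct
Dbp: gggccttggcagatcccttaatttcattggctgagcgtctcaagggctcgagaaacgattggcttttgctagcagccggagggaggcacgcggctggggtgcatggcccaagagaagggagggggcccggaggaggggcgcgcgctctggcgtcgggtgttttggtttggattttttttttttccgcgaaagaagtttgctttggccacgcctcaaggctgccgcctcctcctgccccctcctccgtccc
These matches describe the windows and are not evidence of binding.

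Proximal tubule genes had the highest median of the lists with at least 5 measured members. Of 14 measured members typical of the S1 and S2 segments, 11 were higher and 0 lower, beside 5.06% and 15.5% of all genes. The median log2 ratio of these members was 0.95, and 6 of them were higher in each zone. Slc34a3, a sodium-phosphate cotransporter, stood at 61.3 CPM in PAN_LS-FMD, 13.7 in healthy_LS-FMD, 38.0 in PAN and 66.9 in healthy, a ratio of 4.46 (3.98 to 5.01). Slc6a19, the neutral amino acid transporter, stood at 130.3 CPM in PAN_LS-FMD, 44.7 in healthy_LS-FMD, 65.5 in PAN and 95.6 in healthy, a ratio of 2.92 (2.73 to 3.11). Slc22a8 and Slc22a6, the organic anion transporters OAT3 and OAT1, were 2.52-fold and 2.10-fold higher. Slc22a6 stood at 585 CPM in PAN_LS-FMD, 279 in healthy_LS-FMD, 299 in PAN and 704 in healthy, low in PAN and healthy_LS-FMD. In clusters that scored highest for proximal tubule 9 of the 14 were higher and 0 lower, with or without the unplaced ones. Markers among these genes also chose those clusters, so this count is no independent check. Of the placed spots, 700 of 1380 in PAN_LS-FMD and 89 of 438 in healthy_LS-FMD were cortical. The segments thus took unequal shares, and the part of this in the count was not tested. Markers of the straight S3 segment behaved less evenly, with 2 higher and 1 lower of 10 and a median of 0.16. Slc7a12 was 2.19-fold higher and Slc27a2, which activates and carries long-chain fatty acids, 2.52-fold higher. Acsm3, a medium-chain acyl-CoA synthetase, stood at 87.4 CPM in PAN_LS-FMD, 262 in healthy_LS-FMD, 41.3 in PAN and 202 in healthy, or 2.999-fold (2.87 to 3.13) lower. Kap, the androgen-regulated kidney protein, stood at 17617 CPM in PAN_LS-FMD, 13317 in healthy_LS-FMD, 2049 in PAN and 17930 in healthy. Slc7a13, an S3 amino acid transporter, stood at 3087 CPM in PAN_LS-FMD, 2259 in healthy_LS-FMD, 248 in PAN and 2529.8 in healthy. Neither was counted as different, and both were low in the PAN section alone.

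Cytochrome P450 and flavin oxygenase genes had 6 higher and 2 lower of 15, with a median of 0.36. For this list and the next ones, the shares over all genes were 5.06% higher and 15.5% lower. Cyp2d2 stood at 231 CPM in PAN_LS-FMD, 68.1 in healthy_LS-FMD, 73.3 in PAN and 154 in healthy, a ratio of 3.40 (3.23 to 3.58). Cyp2c23, the main arachidonic acid epoxygenase of rat kidney, stood at 2106 CPM in PAN_LS-FMD, 815 in healthy_LS-FMD, 1103 in PAN and 1365 in healthy, a ratio of 2.59 (2.55 to 2.63). Both were highest in PAN_LS-FMD. Of organic anion and cation transporters, 3 were higher and 0 lower of 12 (median 0.36). Antioxidant and glutathione genes had 4 higher and 1 lower of 17 (median 0.21). Gpx3, the secreted glutathione peroxidase that the kidney supplies to plasma, stood at 20703 CPM in PAN_LS-FMD, 6744 in healthy_LS-FMD, 12883 in PAN and 23510 in healthy, a ratio of 3.07 (3.05 to 3.09). Gpx1 stood at 1499 CPM in PAN_LS-FMD, 688 in healthy_LS-FMD, 1411 in PAN and 1575 in healthy, a ratio of 2.18 (2.14 to 2.21). Hmox1, haem oxygenase, stood at 10.7 CPM in PAN_LS-FMD, 5.09 in healthy_LS-FMD, 22.7 in PAN and 3.52 in healthy, a ratio of 2.10 (1.71 to 2.59), and Nqo1 was 1.57-fold lower. For Gpx1 and Gpx3 healthy_LS-FMD was the lowest section. Vitamin D, calcium and phosphate genes had 3 higher and 1 lower of 7 (median 0.54). Cyp24a1, which degrades active vitamin D, stood at 72.6 CPM in PAN_LS-FMD, 24.2 in healthy_LS-FMD, 183 in PAN and 35.8 in healthy, a ratio of 2.999 (2.75 to 3.28), with the highest level in PAN. S100g, a calcium-binding protein, was 2.18-fold higher and Calb1 2.08-fold lower. Of iron and copper genes 2 were higher and 1 lower of 11: Ftl1, ferritin light chain, and Mt1 were 1.75-fold and 1.57-fold higher, and Tfrc, the transferrin receptor, 1.64-fold lower.

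The distal nephron and collecting duct lay on the low side. Thick ascending limb genes had 0 higher and 7 lower of 9, with a median of -1.25, principal cell genes 0 and 9 of 9 (-0.99), and intercalated cell genes 0 and 8 of 9 (-0.75). With scaling by the median of ratios the lower counts were 7, 8 and 4. Slc12a1, the NKCC2 cotransporter that furosemide blocks, stood at 422 CPM in PAN_LS-FMD, 1326 in healthy_LS-FMD, 506 in PAN and 509.6 in healthy, or 3.14-fold (3.08 to 3.20) lower, and Cldn19 was 3.23-fold lower. Umod, which encodes uromodulin, the main protein of normal urine, stood at 7669.6 CPM in PAN_LS-FMD, 7121 in healthy_LS-FMD, 5210.2 in PAN and 7253 in healthy and was not counted as different. The water channel gene Aqp2, which vasopressin regulates, stood at 397 CPM in PAN_LS-FMD, 949 in healthy_LS-FMD, 264 in PAN and 335 in healthy, or 2.39-fold (2.34 to 2.44) lower. Aqp3, the basolateral water channel, stood at 83.9 CPM in PAN_LS-FMD, 260.2 in healthy_LS-FMD, 46.2 in PAN and 108 in healthy, or 3.10-fold (2.97 to 3.24) lower. The sodium channel subunits Scnn1a, Scnn1b and Scnn1g were 1.99-fold, 1.83-fold and 1.78-fold lower. Slc4a1, the anion exchanger of acid-secreting cells, was 2.38-fold lower. For Slc12a1, Aqp2, Aqp3 and Slc4a1 healthy_LS-FMD was the highest section. Distal convoluted and connecting tubule genes had 1 higher and 2 lower of 4. The larger medullary part of healthy_LS-FMD moved with these lists, and its part in them was not tested. Lower genes were also counted within layers, but the cortical spots differed in make-up. Those of healthy_LS-FMD included a cluster of 310 spots with Slc12a3, Slc26a4 and Calb1 among its leading genes. Clusters led by Klk1c9 and Calb1, of 156 spots in PAN_LS-FMD and 125 in healthy_LS-FMD, were placed in no zone. Proximal tubule clusters gave 700 of 890 cortical spots in PAN_LS-FMD and 89 of 533 in healthy_LS-FMD. In cortical spots 6 of 9 thick ascending limb, 9 of 9 principal cell and 8 of 9 intercalated cell genes were lower, with medians of -1.34, -1.42 and -1.46. In outer stripe spots 4 of 9, 2 of 8 and 4 of 9 were lower (-0.55, -0.37 and -0.32), and in medullary spots 7 of 9, 7 of 8 and 6 of 9 (-1.44, -0.98 and -0.81). Of all genes, 15.5% were lower over all spots, 12.1% in cortical, 12.5% in outer stripe and 30.9% in medullary spots. In the medulla of the joint clustering, which held 126 spots of PAN_LS-FMD in 1 cluster led by collecting duct genes and where 9% of all genes were higher and 26.7% lower, 7 of 9 thick ascending limb genes were lower, while 2 of 8 principal cell and 3 of 9 intercalated cell genes were higher and 0 lower.

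Sodium transport and aldosterone genes had 1 higher and 10 lower of 18 (median -0.60), beside 5.06% higher and 15.5% lower of all genes. The higher gene was Sgk1, a kinase induced by aldosterone and glucocorticoids, at 409 CPM in PAN_LS-FMD, 184 in healthy_LS-FMD, 289 in PAN and 328 in healthy, a ratio of 2.22 (2.15 to 2.29). Its lowest level was in healthy_LS-FMD. Stk39 (SPAK), the kinase that activates NKCC2, stood at 30.7 CPM in PAN_LS-FMD, 91.7 in healthy_LS-FMD, 27.4 in PAN and 29.6 in healthy, or 2.99-fold (2.78 to 3.21) lower. Slc9a3 (NHE3), the proximal sodium-hydrogen exchanger, stood at 64.2 CPM in PAN_LS-FMD, 182 in healthy_LS-FMD, 48.9 in PAN and 74.7 in healthy, or 2.83-fold (2.69 to 2.98) lower. Slc12a3, the thiazide-sensitive cotransporter, stood at 455 CPM in PAN_LS-FMD, 590.1 in healthy_LS-FMD, 126 in PAN and 257 in healthy with both diet sections above the others, and was not counted as different. Inner medulla and osmolyte genes had 0 higher and 3 lower of 7 (median -0.53). Slc6a12 was among the 3, all lower in each zone. Nfat5, the tonicity factor, stood at 88.1 CPM in PAN_LS-FMD, 192 in healthy_LS-FMD, 226 in PAN and 77.3 in healthy, or 2.17-fold (2.08 to 2.28) lower. Akr1b1, the aldose reductase that makes sorbitol and a target of that factor, stood at 32.8 CPM in PAN_LS-FMD, 39.5 in healthy_LS-FMD, 96.4 in PAN and 32.4 in healthy.

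Podocyte genes, which build the slit diaphragm and the foot processes, had 1 higher and 3 lower of 16 measured members (24 listed). Of all genes, 5.06% were higher and 15.5% lower. The podocyte median was 0.06 over all spots, and -0.49 in cortical, 0.07 in outer stripe and -0.32 in medullary spots. Nphs1 (nephrin) stood at 33.3 CPM in PAN_LS-FMD, 28.7 in healthy_LS-FMD, 9.35 in PAN and 16.5 in healthy, a ratio of 1.16 (1.06 to 1.27). Its protein is a core part of the slit diaphragm. The podocyte transcription factor Wt1 stood at 18.1 CPM in PAN_LS-FMD, 13.3 in healthy_LS-FMD, 6.26 in PAN and 8.50 in healthy. Podxl stood at 74.0 CPM in PAN_LS-FMD, 90.6 in healthy_LS-FMD, 46.1 in PAN and 59.4 in healthy. None of these 3 was counted as different, but Wt1 was counted as higher with scaling by the median of ratios, at 1.55-fold. For Nphs1 and Wt1 the injected section without diet was the lowest of the 4. The cortex held more of the PAN_LS-FMD section. Within cortical spots the ratios were 0.651 for Nphs1 and 0.718 for Wt1, both below 1. Clusters that scored highest for podocyte held 113 of 890 cortical spots in PAN_LS-FMD. In healthy_LS-FMD such clusters held 310 and 74 of 533. The cortical spots thus differed in make-up, and Nphs1 and Wt1 were among the markers that placed them. The lower members were Cdkn1c, Plce1 and Vegfa, at 1.71-fold, 1.84-fold and 1.60-fold. Pax2, a gene of the developing kidney and of parietal cells, had 2 UMIs in each of the 2 sections, under the 3 UMIs of the floor, so no ratio is given. Of 12 nephron progenitor genes only 3 had 200 UMIs, and Six2, Cited1 and Eya1 were not among them. Glomerular basement membrane genes had 0 higher and 2 lower of 10 (median -0.34), the 2 being Lamb2 and Agrn at 2.11-fold and 1.59-fold. That count lay near the 15.5% of all genes that were lower. Parietal epithelial genes had 1 higher and 2 lower of 5 (median -0.28), with Cd44, a marker of activated parietal cells, at 7.32 CPM in PAN_LS-FMD, 12.0 in healthy_LS-FMD, 63.2 in PAN and 11.9 in healthy, or 1.64-fold (1.38 to 1.94) lower.

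Tubular injury genes had 1 higher and 9 lower of 18 (median -0.61). Spp1, osteopontin, stood at 225 CPM in PAN_LS-FMD, 1292 in healthy_LS-FMD, 17165 in PAN and 332 in healthy, or 5.74-fold (5.60 to 5.88) lower. The PAN section stood far above the rest, and healthy_LS-FMD lay above healthy and PAN_LS-FMD. In cortical, outer stripe and medullary spots the difference was 1.77-fold, 2.91-fold and 13.2-fold. Of the 32727 Spp1 UMIs of healthy_LS-FMD, 22266 lay in medullary spots. Spp1 was also among the leading genes of a medullary cluster of 299 spots in that section. The part of the sampled medulla in these values was not tested. Havcr1 (KIM-1) stood at 6.21 CPM in PAN_LS-FMD, 5.49 in healthy_LS-FMD, 218 in PAN and 8.43 in healthy, which was not counted as different. Lcn2 (NGAL) stood at 9.98 CPM in PAN_LS-FMD, 15.9 in healthy_LS-FMD, 222 in PAN and 9.63 in healthy, or 1.59-fold (1.37 to 1.84) lower. Within zones Lcn2 was counted as lower in medullary spots alone, at 3.30-fold. Its ratios of 0.848 (0.628 to 1.16) in cortical and 1.56 (0.954 to 2.67) in outer stripe spots were not counted as different. S100a6, also among the leading genes of the inner medullary region of healthy_LS-FMD, and Krt18 were 3.42-fold and 3.19-fold lower. The cell cycle inhibitor Cdkn1a was 1.66-fold higher. Matrix and fibrosis genes had 2 higher and 4 lower of 18 (median -0.20), beside 5.06% higher and 15.5% lower of all genes. Col1a1 stood at 33.8 CPM in PAN_LS-FMD, 43.9 in healthy_LS-FMD, 396 in PAN and 43.0 in healthy. Col3a1 stood at 85.7 CPM in PAN_LS-FMD, 49.8 in healthy_LS-FMD, 632 in PAN and 67.3 in healthy, a ratio of 1.72 (1.61 to 1.84). Fn1, fibronectin, stood at 98.4 CPM in PAN_LS-FMD, 202 in healthy_LS-FMD, 707 in PAN and 109 in healthy, or 2.05-fold (1.96 to 2.14) lower. For these 3 genes the PAN section was far above the others. Mesangial and smooth muscle genes had 0 higher and 3 lower of 9 (median -0.45), Acta2, Myh11 and Mylk, and endothelial genes 0 and 3 of 11 (-0.38), Tek, Plvap and Emcn. Hypoxia genes had 1 higher and 4 lower of 10 (-0.35), of which Egln3 was 3.15-fold lower.

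Macrophage and MHC class II genes had 6 higher and 1 lower of 17 (median 0.23), beside 5.06% higher and 15.5% lower of all genes. By zone they had 8 higher and 1 lower in cortical, 6 and 0 in outer stripe and 2 and 2 in medullary spots. The zone medians were 0.43, 0.23 and -0.03. Of all genes, 7.85%, 4.71% and 11.2% were higher in these zones and 12.1%, 12.5% and 30.9% lower. C1qa, C1qb and C1qc, the subunits of complement C1q that resident macrophages make, were 1.97-fold, 1.65-fold and 1.74-fold higher, and C1qa stood at 95.9 CPM in PAN_LS-FMD, 48.6 in healthy_LS-FMD, 332 in PAN and 51.3 in healthy. Cd68 stood at 19.6 CPM in PAN_LS-FMD, 10.4 in healthy_LS-FMD, 76.4 in PAN and 12.5 in healthy, a ratio of 1.88 (1.63 to 2.17), and Lgals3 was 1.70-fold lower. PAN held more C1qa and Cd68 than any other section. No class II gene was counted as different. RT1-Da stood at 166 CPM in PAN_LS-FMD, 165 in healthy_LS-FMD, 984 in PAN and 143 in healthy. Cd74, the invariant chain, stood at 786 CPM in PAN_LS-FMD, 844 in healthy_LS-FMD, 4107 in PAN and 694 in healthy. RT1-Bb stood at 109.7 CPM in PAN_LS-FMD, 125 in healthy_LS-FMD, 49.3 in PAN and 3.81 in healthy, with both diet sections above the others. Healthy was the lowest by far for that gene. Of MHC class I and interferon response genes, 1 was higher (RT1-A2) and 0 lower of 19 (median 0.04). Complement genes had 1 higher and 1 lower of 7, C3 with a ratio of 2.43 (2.10 to 2.83) and C1s 1.51-fold lower. T and NK cell genes had 1 higher (Cd3d) and 0 lower of 5, and B and plasma cell genes 0 and 0 of 3.

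Heat shock genes had 4 higher and 0 lower of 9 (median 0.44), with Dnaja1 at 273 CPM in PAN_LS-FMD, 134 in healthy_LS-FMD, 280.3 in PAN and 175 in healthy, a ratio of 2.05 (1.97 to 2.13), and Hspa8 at a ratio of 1.93 (1.89 to 1.98). Amino acid and ER stress genes had 1 higher (Phgdh) and 0 lower of 14 (0.26), and nuclear genes of oxidative phosphorylation 0 and 0 of 17 (0.04). Immediate early genes had 0 higher and 3 lower of 11 (-0.43), namely Jund, Dusp1 and Btg2, each also lower in every zone, and Dusp1 stood at 32.1 CPM in PAN_LS-FMD, 66.2 in healthy_LS-FMD, 75.3 in PAN and 38.1 in healthy. Of glucocorticoid-responsive genes 3 were higher and 2 lower of 9. Fkbp5, a sensitive target of the glucocorticoid receptor, stood at 39.5 CPM in PAN_LS-FMD, 71.5 in healthy_LS-FMD, 49.7 in PAN and 22.5 in healthy, or 1.81-fold (1.69 to 1.95) lower. Insulin and IGF genes had 3 higher and 3 lower of 12. Igfbp5 stood at 325 CPM in PAN_LS-FMD, 1069 in healthy_LS-FMD, 551 in PAN and 439 in healthy, or 3.29-fold (3.22 to 3.36) lower, and Igf1 was 2.78-fold lower, while Igfbp2 and Igfbp3 were 2.10-fold and 2.04-fold higher. Cell cycle genes had 0 higher and 2 lower of 7 (Mcm6 and Ccnd1), cell cycle arrest genes 1 and 3 of 9, and autophagy genes 0 and 2 of 11 (Becn1 and Ulk1). Over all genes the shares were 5.06% higher and 15.5% lower. Of tissues that a section can hold beside kidney, adipocyte genes had 0 higher and 2 lower of 3. Fabp4 stood at 16.3 CPM in PAN_LS-FMD, 69.1 in healthy_LS-FMD, 11.2 in PAN and 23.3 in healthy. Adipoq stood at 8.18 CPM in PAN_LS-FMD, 21.3 in healthy_LS-FMD, 6.30 in PAN and 13.1 in healthy. The third measured gene, Cidec, lay the other way at 113 CPM in PAN_LS-FMD, 82.3 in healthy_LS-FMD, 35.8 in PAN and 85.0 in healthy, a ratio of 1.38 (1.31 to 1.45), and was counted as higher with scaling by the median of ratios. Plin1, the lipid droplet coat of adipocytes, had 2 UMIs in each of the 2 sections. Red blood cell genes had 1 higher (Hbb) and 0 lower of 5 over all spots, with a median of -0.43. Within zones 1 of 4 was higher in cortical, 5 of 5 in outer stripe and 4 of 4 in medullary spots. The zones leave out the 110 blood-rich spots of healthy_LS-FMD. They also leave out the 156 unplaced spots of PAN_LS-FMD that scored highest for red blood cell genes. The zone counts are therefore no measure of blood per layer. The single measured adrenal gene was neither, and the single measured mast cell gene, Kit, was lower. The adrenal gene Star had 1 and 2 UMIs in PAN_LS-FMD and healthy_LS-FMD, and Cyp11a1, of steroid synthesis, had 78 and 28, or 2.23 and 1.11 CPM. The urothelial genes Upk2 and Upk3a reached 13 and 18 UMIs in healthy_LS-FMD and 1 and 0 in PAN_LS-FMD. The part of such tissue in the low genes was not tested.

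**Figure D5:**
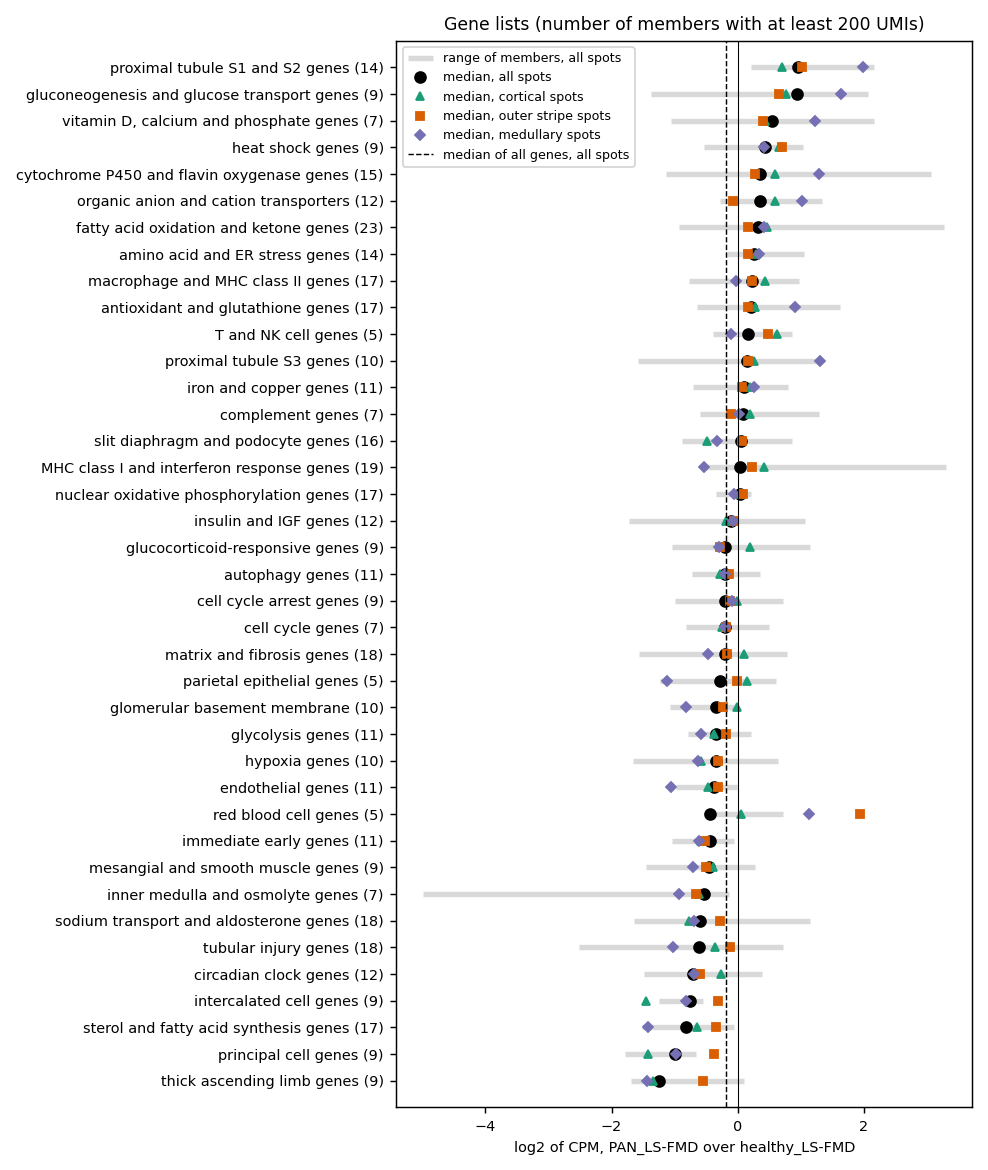
Median log2 ratio of CPM, PAN_LS-FMD over healthy_LS-FMD, of gene lists with at least 5 measured members, over all spots (circles, with the range of members as bars) and within cortical, outer stripe and medullary spots; the dashed line is the median of all genes at -0.19. Proximal tubule S1 and S2 genes have the highest median over all spots (0.95) and thick ascending limb genes the lowest (-1.25).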

How the data were processed

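Spatial transcriptomes of 4 rat kidney sections were used as deposited matrices of UMI counts per gene and spot, with no normalisation. Per the header of each matrix these came from Space Ranger, version 1.2.1 for PAN_LS-FMD, healthy_LS-FMD and PAN and 2.0.1 for healthy. The 2 sections compared thus share a version, and levels in healthy come from another. The genome build and annotation are not given in the sources used here. Spots with at least 500 UMIs were kept. No doublet caller or deconvolution was run, since spots hold several cells. Counts were summed per gene over spots and divided by the section's total to give UMIs per 1000000 (CPM). Genes with at least 200 UMIs over both sections (50 within a zone) were compared by the ratio of CPM with an exact 95% binomial interval on the 2 counts. Such intervals and the floor of 3 UMIs cover counting error only. A call needed 1.5-fold and an interval that excluded 1. With 1 section per group no test was run.

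Zones came from clustering each section's spots with scanpy 1.11.5 (counts scaled to 10000 per spot, logged, 2000 variable genes, 30 components, 15 neighbours, Leiden resolution 1). Clusters were placed by their best marker list, scored on log2(CPM + 10); a cluster with more markers of another zone than of its own among its 10 leading genes stayed unassigned. Both sections were also clustered together in the same way. Other work used Python 3.11.15, numpy 2.4.6, scipy 1.17.1, pandas 2.3.3 and matplotlib 3.10.9, and the steps were tested on simulated data. Named genes were the 15 highest and 15 lowest ratios, the 10 on each side ranked by their weakest zone among genes called over all spots and at least 1.5-fold the same way in each zone, a fixed set that includes podocyte, injury, metabolic and segment marker genes, and up to 6 members of each list with the largest ratios. Mitochondrially encoded, ribosomal protein and haemoglobin genes and provisional symbols stayed out of the ranked sets. The other list members named, namely some that were not counted as different or lay below the minimum, and Bdh1, Cpt1b, Idi1, Npas2 and Scnn1g, were chosen after their values were seen. The 45 gene lists (603 genes), which overlap with each other and with the zone markers, and the comparison itself were chosen with earlier results of these data known. Alternatives were other scalings, minimum counts, fold thresholds, zones and sets of spots. Promoter sequences are from RefSeq (GRCr8). Results of some genes are not reported here.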

Additional observations from a re-analysis of the deposited data

How the results depend on the processing

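No paired analysis was possible because each group was 1 section, and leaving out a replicate was not possible for the same reason. The counts of 484 higher and 1486 lower genes became 857 and 868 with scaling by the median of ratios, 295 and 791 with a minimum of 1000 UMIs per gene, and 180 and 494 at 2-fold. Within cortical spots 738 genes were higher, and within medullary spots 1051 were higher and 2911 lower. Settings chosen after seeing the data gave 725 lower genes in clusters that scored highest for proximal tubule and 633 in those of them placed in a zone. By the joint clustering, 730 were higher in cortex, 896 lower in outer stripe, and 823 higher and 2443 lower in medulla. All other settings kept both counts within 1.5 times. Of 627 values of the 40 named genes that were called, 5 had the opposite sign. The log2 ratio of Lcn2 was 0.64 in outer stripe spots, 0.43 in those of the joint clustering, 0.11 in clusters that scored highest for proximal tubule and 0.58 in the placed ones, and that of Cdkn1a was -0.11 in medulla of the joint clustering. Among 172 values of the other named genes, 27 changed sign. List medians changed sign in 74 of 804 values, in 25 of 45 lists. Of 198 values of the 11 lists with a median of at least 1.5-fold, 5 did so, all in medulla of the joint clustering: principal cell (0.10), intercalated cell (0.32), sodium transport and aldosterone (0.017), adipocyte (0.11) and mast cell genes (0.32). The red blood cell median changed sign in 11 settings and the podocyte median in 8. The cause of these changes was not tested. The depth of 34965670 and 25330872 UMIs left 22837 of the 32402 genes below the minimum of 200 UMIs, and counting intervals do not cover differences between animals or between sections of an animal.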
